A study of Homo sapiens with 34 samples.

Results

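The genes described here were 10 of the 26336 genes in the count table, all of them members of the insulin-like growth factor (IGF) axis. They were the ligand gene IGF2, the receptor genes IGF1R and INSR, the receptor substrate genes IRS1 and IRS2, and the binding protein genes IGFBP2, IGFBP3, IGFBP4, IGFBP5 and IGFBP6. They were taken by symbol, and all 10 were found. The family was chosen on the measured level of IGFBP3 in these libraries, which moved in opposite directions with androgen in VCaP and in LNCaP cells. Its values in the groups behind that pattern are therefore given as a description, with no test.

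RNA was sequenced from 4 established human prostate cell lines, giving 34 libraries in 17 groups. RWPE is a non-tumorigenic prostate epithelial line, LNCaP was derived from a lymph node metastasis, and VCaP and MDAPCa2a from bone metastases. Cells grew on plastic or on a calcium coating that the labels call ACP. The medium was control medium, medium whose serum had been stripped with charcoal and dextran, which lowers steroid hormones, or stripped medium with androgen added. The androgen is named DHT in the sample titles and testosterone in the condition labels, at a labelled 100 mM, and is called androgen here.

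LNCaP had 5 groups of 2 libraries, which were plastic with control medium, plastic with stripped serum, and ACP with control medium, stripped serum or androgen. VCaP had the same 5 groups, with 1 library on plastic in stripped serum. MDAPCa2a had 4 groups of 2 libraries, which were plastic with control medium or stripped serum and ACP with stripped serum or androgen. RWPE had 2 libraries on plastic in control medium, 2 on ACP in control medium and 3 on ACP with androgen. Day 4 is the label of every group but plastic control, which is labelled continuous culture. RWPE was kept in serum-free keratinocyte medium with EGF and pituitary extract, and the other lines in media with bovine serum. MDAPCa2a plastic carried a protein coating (FNC) that its ACP surface lacked. Each line stands for itself only, and nothing in the labels says that replicates were separate cultures, so p-values measure the spread between these libraries, which may be technical.

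Libraries held 15.4 M to 44.8 M reads assigned to genes. The 8 plastic control libraries were the deeper ones (34.9 M to 44.8 M, against 15.4 M to 37.0 M in the other 26). They also stood apart in markers of liver: FGG, a fibrinogen chain gene, had 51 to 118 reads in each of them and at most 1 read in any other library. The summed level of 12 liver genes, in CPM (the read count scaled to library depth), was compared between plastic control and all other groups of a line. It was 21.5 to 24.1 against 1.00 to 3.36 CPM in RWPE and 18.9 to 26.7 against 2.14 to 7.87 CPM in LNCaP. In MDAPCa2a it was 11.3 to 18.98 against 0.445 to 3.09 CPM, and in VCaP 85.4 to 176 against 50.5 to 385 CPM. Whether RNA of other cells or of other samples took part in any comparison with plastic control was not tested, and batch and group cannot be told apart there. Markers of RWPE and VCaP otherwise went with the labels, while LNCaP and MDAPCa2a were not checked with a marker of their own. The basal epithelial genes KRT5, KRT14 and TP63 summed to 3349 to 15699 CPM in RWPE and to at most 37.2 CPM elsewhere, and ERG, which VCaP expresses from a gene fusion, stood at 126 to 882 CPM in VCaP and at most 2.32 CPM elsewhere.

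The ligands IGF1 and IGF2 act through the tyrosine kinase receptor encoded by IGF1R, and insulin acts through the related receptor encoded by INSR. The activated receptors phosphorylate the adaptor proteins IRS1 and IRS2, which recruit PI3-kinase and so feed AKT and mTOR signalling. Outside the cell, IGF binding proteins hold the ligands away from the receptors or prolong their life; IGFBP3 is the main carrier in blood, and prostate kallikreins can cleave it. In the prostate the axis is known for its part in epithelial growth and in androgen-dependent tumour growth.

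Promoters are shown for the members on which the androgen comparisons turn, IGFBP3, IGF1R and IRS2, and for IGFBP2, the one member whose window holds an androgen receptor half-site. Each run is the 250 bases before the RefSeq start of the gene in GRCh38.p14, on the gene's own strand and 5′ to 3′. The reads had been aligned to hg19, per the submitters' processing notes, so these windows carry no measurement of their own. Capitals mark matches, on either strand, to a half-site of the androgen response element (AGAACA, reverse TGTTCT), a FOXO motif (TGTTTAC, reverse GTAAACA), the core promoter element TATAAA (reverse TTTATA), or an SP1 site known as the GC box (GGGCGG, reverse CCGCCC).
IGFBP3: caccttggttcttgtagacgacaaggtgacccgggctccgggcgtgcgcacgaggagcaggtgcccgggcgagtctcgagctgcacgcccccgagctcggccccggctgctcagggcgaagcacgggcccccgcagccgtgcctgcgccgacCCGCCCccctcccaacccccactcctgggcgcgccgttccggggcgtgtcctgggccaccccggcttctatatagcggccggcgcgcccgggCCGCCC
IGF1R: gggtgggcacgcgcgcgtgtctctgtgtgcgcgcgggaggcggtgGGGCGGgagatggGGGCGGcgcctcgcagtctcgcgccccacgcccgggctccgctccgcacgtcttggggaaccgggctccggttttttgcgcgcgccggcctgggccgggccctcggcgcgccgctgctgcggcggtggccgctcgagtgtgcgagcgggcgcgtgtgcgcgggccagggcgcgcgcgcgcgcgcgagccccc
IRS2: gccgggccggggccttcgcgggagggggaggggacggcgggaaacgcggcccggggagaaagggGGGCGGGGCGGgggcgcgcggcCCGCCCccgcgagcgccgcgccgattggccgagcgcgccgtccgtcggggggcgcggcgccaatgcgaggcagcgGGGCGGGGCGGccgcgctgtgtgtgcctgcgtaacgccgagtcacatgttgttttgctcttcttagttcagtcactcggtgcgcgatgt
IGFBP2: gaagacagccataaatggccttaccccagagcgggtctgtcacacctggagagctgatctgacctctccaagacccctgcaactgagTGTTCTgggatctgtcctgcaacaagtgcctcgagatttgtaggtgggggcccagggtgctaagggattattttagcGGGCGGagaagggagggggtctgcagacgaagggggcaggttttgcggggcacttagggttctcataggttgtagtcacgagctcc

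The windows lie at chr7:45921273-45921522 on the minus strand for IGFBP3, chr15:98648289-98648538 on the plus strand for IGF1R, chr13:109786584-109786833 on the minus strand for IRS2 and chr2:216632578-216632827 on the plus strand for IGFBP2. The RefSeq table held 9 of the 10 members; IGF2 was not matched. IGFBP3, IGF1R and IRS2 have windows rich in G and C (76.0%, 81.2% and 76.4%, with 32, 48 and 42 CpG steps), against a median of 58% and 11 CpG steps over 27305 promoters, while IGFBP2 lies near that median (56.8%, 7 steps). A GC box was found in 8 of 9 members and in 42.3% of all promoters; in IRS2 neighbouring GC boxes share 1 letter. The androgen half-site was found in 1 of 9 members (IGFBP2, 163 bases before the start, on the other strand) and in 12.4% of all promoters. The FOXO motif was found in 1 of 9 (IGFBP6) against 2.98%, and TATAAA or its reverse in 1 of 9 (IGFBP4) against 11.1%. These are matches of letters only.

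The members differed widely between the lines, and IGFBP3 was nearly constant in MDAPCa2a but not in VCaP. In MDAPCa2a, IGFBP3 lay between 992 and 1434 CPM in all 8 libraries, with a highest value only 1.45 times the lowest. In LNCaP it lay between 4.66 and 46.1 CPM over 10 libraries (median 7.83), and in RWPE between 1.91 and 11.1 CPM over 7 libraries (median 4.70). VCaP alone moved across both ranges: its 9 libraries ran from 9.22 to 1869 CPM, a 203-fold span, with a median of 191 CPM.

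**Figure D1:**
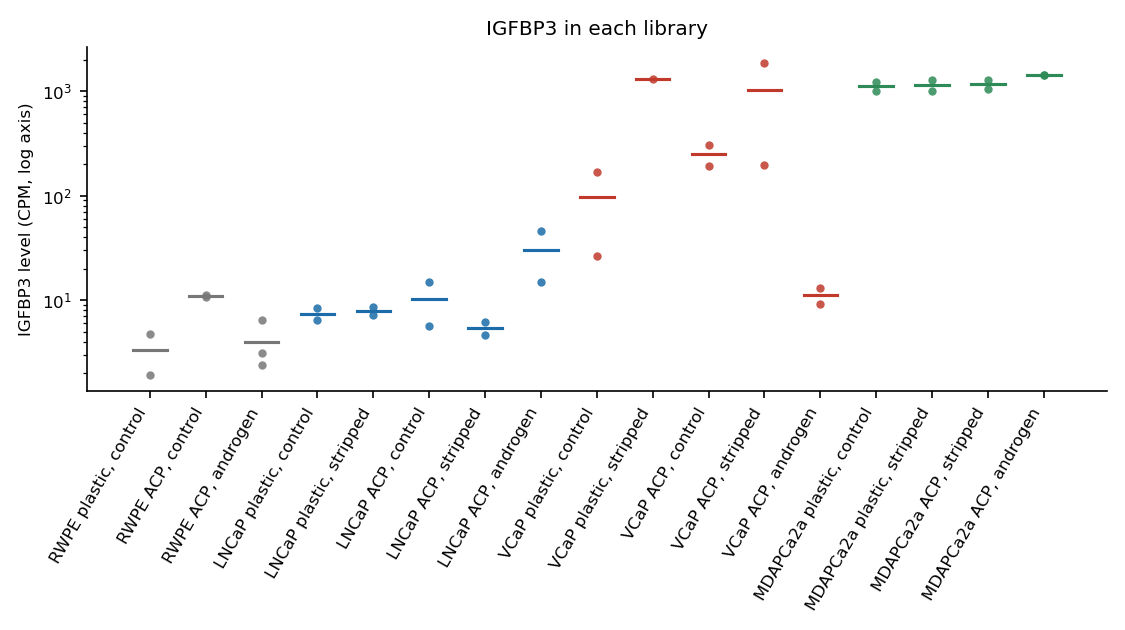
IGFBP3 level in CPM (log axis) in each of the 34 libraries, by group; points are libraries, bars are group means, and colours mark the line. VCaP with androgen (9.22 and 13.1 CPM) sits in the range of LNCaP, while the other VCaP groups reach up to 1869 CPM and the MDAPCa2a libraries stay between 992 and 1434 CPM.

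Between lines, members were tested in the 2 conditions that all 4 lines share. On plastic in control medium, 8 of the 10 members passed an adjusted p of 0.05 between LNCaP and RWPE (57.4% of all genes did), 9 between VCaP and RWPE (62.4%), 8 between MDAPCa2a and RWPE (56.7%), 8 between VCaP and LNCaP (52.6%), 6 between MDAPCa2a and LNCaP (40.2%) and 8 between VCaP and MDAPCa2a (52.4%). On ACP with androgen, where the IGFBP3 values are those its choice rested on, it was left out of the counts. Of the other 9 members, 6 (66.9%), 7 (67.4%), 7 (64.0%), 6 (56.0%), 4 (45.3%) and 5 (51.4%) passed in the same order, with the share of all genes in parentheses. These comparisons share libraries, and with backgrounds this high the counts say nothing particular about the members.

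IGF2, the ligand gene, was close to the limit of detection. It had 43 and 45 reads (1.14 CPM in both) in RWPE on plastic in control medium, 13 and 6 reads on ACP in control medium, and 0 to 11 reads in every other library. MDAPCa2a had no IGF2 read in 7 of its 8 libraries, and on plastic in control medium RWPE was at least 26.5-fold higher than MDAPCa2a (88 reads against the 3 reads that a count of 0 allows over the group). The RWPE libraries with the most IGF2 were the plastic control libraries that also carried liver transcripts, and the part of that RNA was not tested. The deposited counts have a separate row for the read-through gene INS-IGF2, which was at 0 in all libraries. It shares exons with IGF2, so the IGF2 count is uncertain.

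IGF1R, the IGF receptor gene, was highest in VCaP and lowest in LNCaP. VCaP libraries ran from 184 to 676 CPM (median 368), MDAPCa2a from 57.4 to 204 (median 109), RWPE from 47.9 to 108 (median 85.1) and LNCaP from 2.88 to 27.7 (median 15.4). The ranges of VCaP and LNCaP lay far apart in every condition. VCaP exceeded LNCaP by 3.85 ± 0.35 (SE) on the log2 scale on plastic in control medium (edgeR adjusted p = 1.61e-09) and by 4.82 ± 0.36 on ACP with androgen (7.28e-11). The order of MDAPCa2a and RWPE changed with the condition: MDAPCa2a was lower by 0.78 ± 0.31 on plastic (log2 difference -0.78, adjusted p = 0.0365) and higher by 0.84 ± 0.28 on ACP with androgen (0.0115). The first call was lost without any 1 of the 4 libraries (-0.87 to -0.70) and with replicate numbers as blocks, and the second without MDAPCa2a androgen replicate 1 (range 0.65 to 1.26).

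INSR, the insulin receptor gene, kept a narrow range in each line. It lay between 3.38 and 6.58 CPM in RWPE, 21.3 and 35.0 in LNCaP, 14.02 and 33.6 in VCaP and 51.9 and 86.9 in MDAPCa2a, so that RWPE and MDAPCa2a overlapped with no other line. MDAPCa2a exceeded RWPE by 3.90 ± 0.22 on plastic (adjusted p = 2.16e-13) and by 3.81 ± 0.19 on ACP with androgen (2.41e-14). LNCaP and VCaP overlapped, and their calls (-0.56 ± 0.19 and -0.52 ± 0.20 for VCaP minus LNCaP, adjusted p = 0.0181 and 0.0291) were lost with replicate numbers as blocks and without LNCaP replicate 1, LNCaP replicate 2 or VCaP replicate 2 of the same condition, and the second also with RLE scaling (ranges -0.68 to -0.45 and -0.67 to -0.40).

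The balance of the receptors also set the lines apart. Per kilobase of exon, the level of IGF1R was 9.86 to 15.6 times that of INSR in RWPE and 6.29 to 29.4 times in VCaP. In LNCaP it was 0.0976 to 0.723 times the INSR level, so that INSR was the higher of the pair in all 10 libraries. MDAPCa2a had a ratio of 0.491 to 0.575 on plastic in control medium and of 1.23 to 2.79 in its other 6 libraries, which differ in medium and, on ACP, also in surface and coating; this difference was not tested. These ratios use exon lengths from a GRCh38 annotation, which may differ from the authors' gene models.

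IRS1 and IRS2, the receptor substrate genes, were highest in different lines. IRS1 was highest in MDAPCa2a (45.01 to 73.4 CPM) and lay at 4.90 to 16.9 CPM in LNCaP, 6.32 to 36.2 in VCaP and 10.3 to 38.6 in RWPE. IRS2 was highest in VCaP (74.7 to 426 CPM), followed by MDAPCa2a (52.8 to 130.2), RWPE (11.9 to 75.4) and LNCaP (5.05 to 86.6), where the neighbouring lines overlap. On plastic in control medium, VCaP minus LNCaP was 4.50 ± 0.44 for IRS2 (adjusted p = 6.65e-09), and on ACP with androgen it was 0.68 ± 0.38 (0.133). LNCaP minus RWPE was -2.36 ± 0.40 for IRS2 on plastic (adjusted p = 2.00e-05) and 1.65 ± 0.35 on ACP with androgen (0.000213), so that these lines changed order between the conditions.

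Among IGFBP2 to IGFBP6, IGFBP2 was, by median share per kilobase of exon, the leading binding protein transcript of LNCaP, VCaP and RWPE. Its libraries ran from 51.8 to 109.5 CPM in LNCaP, 142 to 340.4 in RWPE, 171 to 351 in VCaP and 261 to 527 in MDAPCa2a, and LNCaP overlapped with no other line. LNCaP was lower than RWPE by log2 differences of -0.97 ± 0.23 on plastic (adjusted p = 0.000998) and -1.23 ± 0.22 on ACP with androgen (2.95e-05).

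IGFBP6, a binding protein with a preference for IGF2, was high in RWPE and near the limit of detection in the other lines. It lay at 20.0 to 143 CPM in RWPE, at 0.130 to 1.49 CPM in VCaP, at 0 to 0.353 CPM in LNCaP and at 0 to 0.276 CPM in MDAPCa2a. On ACP with androgen, RWPE held 1921 reads against 3 in LNCaP, a ratio of 692 (95% exact interval 236 to 3356), and against 1 in MDAPCa2a, a ratio of 1297 (233 to 51258); the intervals cover counting error only. The highest group mean of LNCaP was 0.188% of the highest in RWPE, that of MDAPCa2a 0.221% and that of VCaP 1.28%, and whether reads at this level carried over from RWPE libraries was not tested.

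IGFBP4 and IGFBP5 were low throughout. IGFBP4 lay at 5.70 to 11.5 CPM in RWPE and 1.01 to 5.17 CPM in VCaP, with no overlap, and at 0 to 0.761 CPM in LNCaP and 0 to 0.982 CPM in MDAPCa2a. Its highest values in both of these lines were in the plastic control libraries. IGFBP5 lay at 0.606 to 10.2 CPM in VCaP, 0.188 to 2.15 in RWPE, 0.242 to 1.00 in LNCaP and 0.344 to 1.22 in MDAPCa2a. VCaP minus RWPE on plastic was 2.55 ± 0.52 for IGFBP5 (adjusted p = 0.000143) and -1.54 ± 0.47 for IGFBP4 (0.00649), the latter lost without VCaP plastic control replicate 1 (range -1.79 to -1.32).

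**Figure D2:**
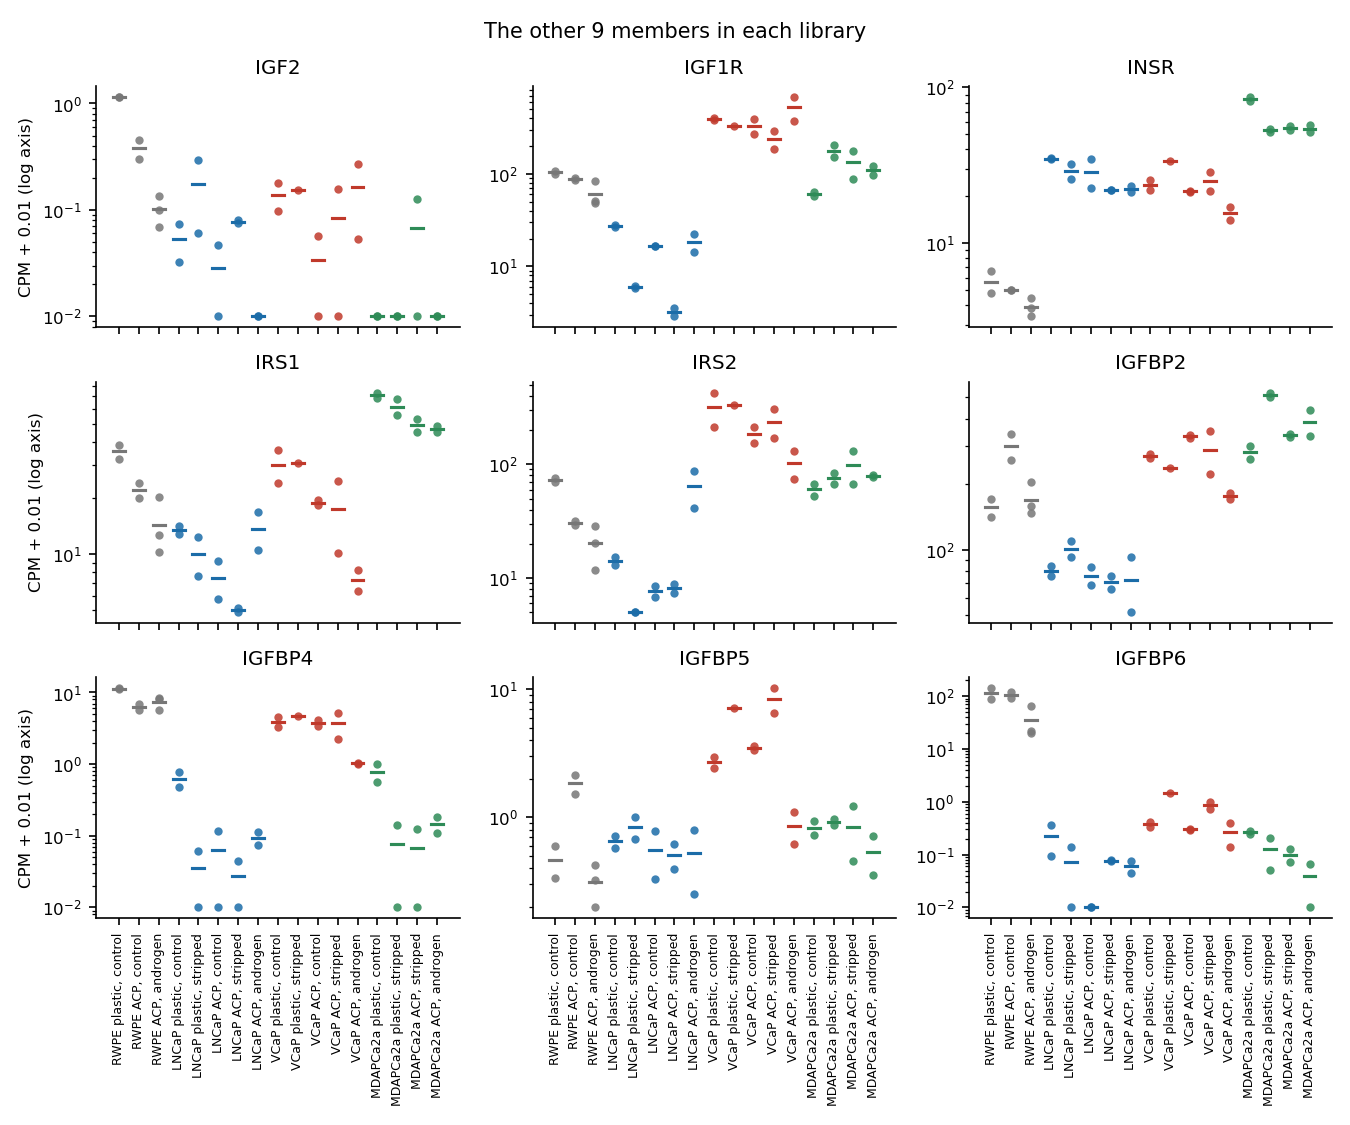
Levels of the other 9 members in each of the 34 libraries, as CPM + 0.01 on log axes that differ between panels; points are libraries, bars are group means, and colours mark the line. IGFBP6 stands at 20.0 to 143 CPM in RWPE and below 1.5 CPM elsewhere, and IRS2 in LNCaP reaches 41.4 and 86.6 CPM with androgen.

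**Figure D3:**
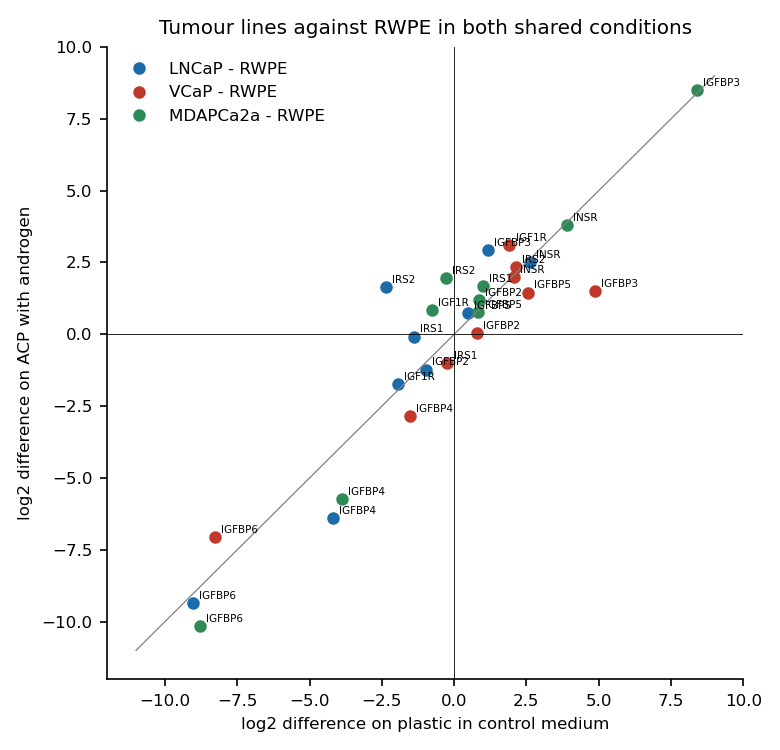
Log2 difference of each tumour line from RWPE for 9 members (IGF2 is left out for its low counts), on plastic in control medium (x axis) against ACP with androgen (y axis); the grey line marks equal differences. IRS2 in LNCaP crosses from -2.36 to 1.65, and IGFBP3 in VCaP lies far below the line (4.86 and 1.49), while INSR in MDAPCa2a lies on it (3.90 and 3.81).

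Androgen on ACP was compared with stripped serum on ACP, which addresses how the axis responds to androgen on the coated surface. In LNCaP, the genes of the IGF receptor and of both substrates rose together. IGF1R rose from 2.88 and 3.50 CPM to 22.5 and 14.4 CPM. IRS2 rose from 8.86 and 7.39 CPM to 86.6 and 41.4 CPM, and IRS1 from 5.14 and 4.90 CPM to 16.9 and 10.5 CPM. Both androgen libraries lay above both stripped libraries for each of these genes, with replicate 1 the higher. The share of all genes without overlap was not counted. As ratios of group means the rises were 5.79-fold for IGF1R, 7.88-fold for IRS2 and 2.72-fold for IRS1.

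Of the 7 members tested in LNCaP, these 3 passed the threshold, where 7.73% of all genes did (3.77% higher and 3.96% lower); the median log2 difference was 1.43 over the tested members and -0.01 over all genes. The log2 differences were 2.52 ± 0.24 (SE) for IGF1R (edgeR adjusted p = 0.000255) and 2.97 ± 0.31 for IRS2 (0.000419), and both remained past the threshold without each of the 4 libraries in turn (2.15 to 2.82 and 2.32 to 3.42). For IRS1 the difference was 1.43 ± 0.30 (adjusted p = 0.0178), and the call was lost without stripped replicate 1, stripped replicate 2 or androgen replicate 1 (range 1.03 to 1.75, adjusted p = 0.111 to 0.124 in these 3 fits). INSR stayed at 21.9 and 22.0 CPM against 23.2 and 21.3 CPM (0.00 ± 0.19, adjusted p = 0.994), and IGFBP2 at 75.4 and 66.1 CPM against 51.8 and 92.8 CPM (0.01 ± 0.22, 0.978). IGFBP4 had 5 reads against 1, and IGF2 and IGFBP6 were too low to test. Of 9 lymphoid and myeloid marker genes, 4 to 6 had a read in these libraries, and their sum was 32.4 to 38.6 CPM with androgen and 11.3 to 12.8 CPM without, nearly all of it CD68; PTPRC had 0 to 5 reads. Its part in the result was not tested.

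IGFBP3 in LNCaP was at 4.66 and 6.16 CPM in stripped serum and at 46.1 and 14.9 CPM with androgen. The groups do not overlap, which is a description, since the share of all genes without overlap was not counted. Androgen replicate 1 stood 3.10 times above replicate 2. The log2 difference was 2.49, and 1.43 without androgen replicate 1.

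In VCaP the binding protein genes IGFBP5 and IGFBP4 fell with androgen while IGF1R rose. IGFBP5, which binds IGFs and extracellular matrix, fell from 6.53 and 10.2 CPM to 0.606 and 1.10 CPM. IGFBP4, known as an inhibitor of IGF action, fell from 5.17 and 2.21 CPM to 1.04 and 1.01 CPM. IGF1R rose from 289 and 184 CPM to 676 and 368 CPM. For each of the 3 genes the groups do not overlap, which is a description, since the share of all genes without overlap was not counted.

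Of the 8 members tested in VCaP, these 3 passed the threshold, beside 17.5% of all genes (8.67% higher and 8.80% lower); the median log2 difference was -1.23 over the tested members and -0.03 over all genes. IGFBP5 changed by -3.29 ± 0.43 (adjusted p = 0.00214), with the call intact without each library in turn (-3.78 to -2.91). The call for IGF1R (1.14 ± 0.32, adjusted p = 0.0365) was lost without stripped replicate 1, stripped replicate 2 or androgen replicate 1 (0.67 to 1.55). The call for IGFBP4 (-1.84 ± 0.48, adjusted p = 0.0274) was lost without stripped replicate 1 or either androgen library (-2.33 to -1.07).

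The other 5 members tested in VCaP had lower means with androgen and did not pass; IGF2, with 3 reads in stripped serum and 7 with androgen, was too low to test. IRS1 was at 24.6 and 10.2 CPM against 6.32 and 8.23 CPM (-1.25 ± 0.39, adjusted p = 0.0524), and IRS2 at 306 and 169 CPM against 131 and 74.7 CPM (-1.21 ± 0.41, 0.0658). INSR was at 28.6 and 21.8 CPM against 17.1 and 14.02 CPM (-0.69 ± 0.24, 0.0674), IGFBP2 at 351 and 224 CPM against 171 and 182 CPM (-0.70 ± 0.23, 0.0574), and IGFBP6 at 0.975 and 0.738 CPM against 0.130 and 0.394 CPM (-1.69 ± 0.70, 0.121). Without adjustment, all 8 tested members had a p below 0.05, beside 5386 of all 15614 genes tested. With DESeq2, 6 of the members passed, beside 3415 of all genes.

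IGFBP3 in VCaP was at 1869 and 195 CPM in stripped serum and at 9.22 and 13.1 CPM with androgen. The stripped libraries themselves differed 9.60-fold. The mean in stripped serum was 92.5 times that with androgen. The log2 difference of -6.53 became -4.08 without stripped replicate 1 and -7.39 without stripped replicate 2.

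Markers of other cell types moved with this comparison in VCaP. The liver list summed to 324 to 385 CPM in stripped serum and 50.5 to 114 CPM with androgen. ALB had 5486 to 7850 reads against 354 to 1479, and TTR 1069 to 1383 against 462 to 836. SERPINA1 went the other way (79 to 142 reads against 251 to 325), as did HP (0 to 2 against 10 to 15) and APOA1 (2 to 3 against 9 to 10). FGG, FGA and APOC3 were at 0 reads in these 4 libraries. The fibroblast list (10 genes) summed to 41.8 to 163 CPM against 8.05 to 8.85 CPM, with LUM at 752 to 3723 reads against 29 to 94, COL1A1 at 58 to 163 against 88 to 133 and THY1 at 0. The lymphoid and myeloid list summed to 9.14 to 15.5 CPM against 83.6 to 156 CPM, mostly LYZ, with CD3D and CD3E at 0. Their part in the results was not tested, and in such bulk samples fewer cells of a type and less RNA per cell cannot be told apart.

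**Figure D4:**
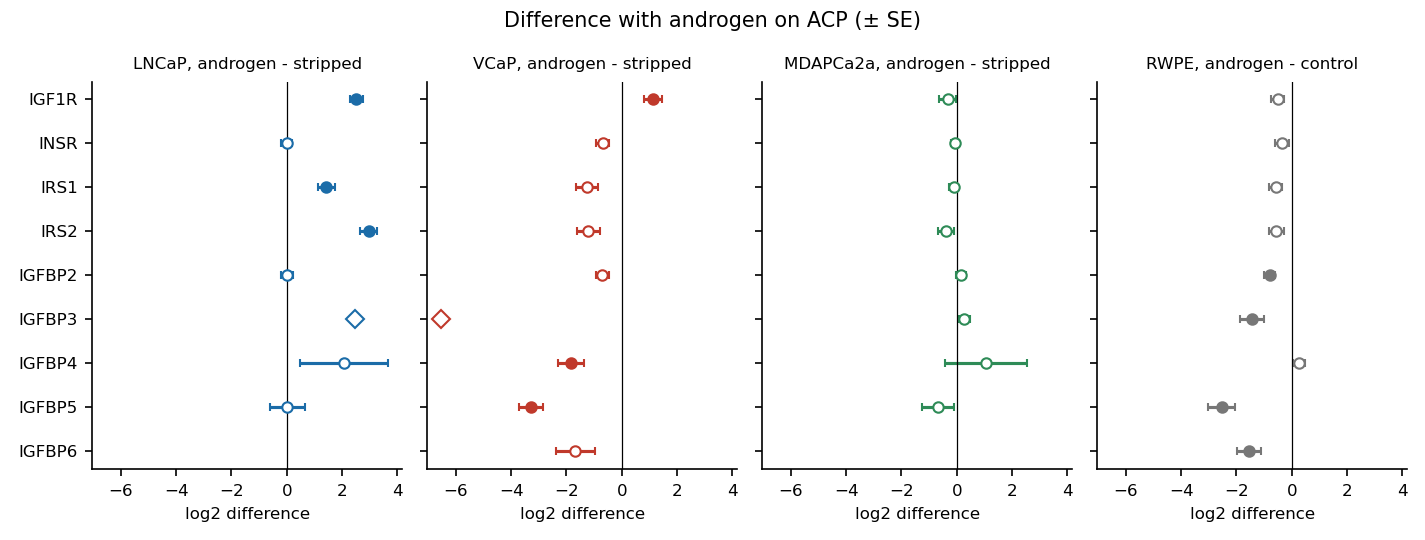
Log2 difference with androgen on ACP for 9 members (IGF2 is left out for its low counts), by line, against stripped serum in LNCaP, VCaP and MDAPCa2a and against control medium in RWPE; bars are ± 1 SE, filled circles passed an adjusted p of 0.05, open circles did not, and open diamonds mark IGFBP3 where no test applies. IRS2 lies at 2.97 in LNCaP and -1.21 in VCaP, and IGFBP3 at 2.49 and -6.53.

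The androgen response of VCaP and of LNCaP was compared directly, as the difference of the differences in a fit of all 34 libraries. The substrate genes separated the lines: IRS2 and IRS1 rose in LNCaP and had lower means with androgen in VCaP. Of 9 members tested, 3 passed the threshold, beside 10.9% of all genes (5.39% higher and 5.51% lower), and all 3 had the more negative response in VCaP. The difference was -4.18 ± 0.57 for IRS2 (adjusted p = 8.52e-05) and -2.70 ± 0.49 for IRS1 (0.00129), and both calls remained without each of the 8 libraries in turn (-4.64 to -3.55 and -3.20 to -1.94). For IGFBP5 it was -3.33 ± 0.76 (adjusted p = 0.00617), lost without LNCaP androgen replicate 2 (range -3.93 to -2.25). IGF1R rose in both lines, and the difference of its responses did not pass (-1.39 ± 0.46, adjusted p = 0.0524). IGFBP3, the gene behind the choice, differed by -9.03 as a description (-9.88 to -6.63 without each library in turn).

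In MDAPCa2a no member passed the threshold with androgen on ACP, and no other gene did. Of 8 members tested, 0 passed with edgeR, 0 had an unadjusted p below 0.05 and 0 passed with DESeq2, beside 0% of all genes with edgeR. IGFBP3, tested here because the choice did not rest on this line, was at 1039 and 1274 CPM in stripped serum and 1422 and 1434 CPM with androgen (0.27 ± 0.20, adjusted p = 0.968). IGF1R was at 177 and 88.0 CPM against 122 and 96.0 CPM (-0.33 ± 0.32), IRS2 at 130.2 and 67.7 CPM against 77.9 and 80.3 CPM (-0.38 ± 0.29), and IGFBP2 at 328 and 341 CPM against 333 and 436 CPM (0.16 ± 0.18). The groups overlap for IGF1R, IRS2 and IGFBP2 and do not for IGFBP3, and the share of all genes without overlap was not counted. Over all genes, 236 of 13626 had an unadjusted p below 0.05 and 3 passed with DESeq2. Whether this line differed in its response from LNCaP or VCaP was not tested.

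In RWPE, androgen medium on ACP was compared with control medium on ACP, with no stripped group of this line used here, so that added androgen and the change of medium cannot be told apart. All members past the threshold were binding protein genes, and all were lower. IGFBP5 went from 2.15 and 1.51 CPM to 0.188, 0.411 and 0.316 CPM, IGFBP6 from 119 and 93.1 CPM to 20.0, 65.1 and 22.2 CPM, IGFBP3 from 10.7 and 11.1 CPM to 3.13, 6.46 and 2.39 CPM, and IGFBP2 from 340.4 and 259 CPM to 147, 204 and 158 CPM. The groups do not overlap for any of these 4 genes, which is a description, since the share of all genes without overlap was not counted.

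Of the 10 members tested in RWPE, these 4 passed, beside 19.1% of all genes (11.0% higher and 8.05% lower); the median log2 difference was -0.69 over the members and -0.02 over all genes. The differences were -2.54 ± 0.50 for IGFBP5 (adjusted p = 0.0170), -1.54 ± 0.43 for IGFBP6 (0.0349), -1.44 ± 0.43 for IGFBP3 (0.0426) and -0.80 ± 0.20 for IGFBP2 (0.0261). All 4 calls were lost without control replicate 1 or control replicate 2, and those of IGFBP2, IGFBP3 and IGFBP6 also without androgen replicate 1 (ranges -2.79 to -2.32, -2.31 to -1.26, -1.97 to -1.15 and -0.96 to -0.65 in the order above). With replicate numbers as blocks, 7 members passed. The basal markers KRT5, KRT14 and TP63 summed to 15699 and 12538 CPM in control medium and to 3349, 10954.5 and 3866 CPM with androgen, so that androgen replicates 1 and 3 were the low ones for this sum as for IGFBP2, IGFBP3, IGFBP5 and IGFBP6. Its part in the result was not tested.

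Removing steroids and other factors from serum was followed on each surface as stripped against control medium. In LNCaP, IGF1R fell on both surfaces. On plastic it fell from 27.7 and 26.3 CPM to 5.90 and 6.12 CPM, and on ACP from 16.7 and 16.4 CPM to 2.88 and 3.50 CPM. The log2 differences were -2.12 ± 0.24 (adjusted p = 0.000462) and -2.39 ± 0.24 (0.000507), and both calls remained without each of the 4 libraries in turn (-2.19 to -2.05 and -2.56 to -2.25). The ACP stripped libraries are also the reference of the androgen comparison, so the fall here and the rise there are not independent.

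On plastic in LNCaP, 3 of 8 members tested passed, beside 9.45% of all genes (4.61% higher and 4.84% lower), and all were lower in stripped serum. IRS2 fell from 15.2 and 13.0 CPM to 5.05 CPM in both libraries (-1.43 ± 0.31, adjusted p = 0.0153), a call lost without any 1 of the 4 libraries (-1.53 to -1.32). IGFBP4 went from 57 reads to 1 over the groups, a ratio of 36.05 (95% exact interval 6.21 to 1449, counting error only), with an adjusted p of 0.0271 that was lost without either control library, without stripped replicate 1 and with DESeq2 (log2 difference -4.81 ± 1.18, range -7.34 to -3.40). The control libraries here are the deeper ones with liver transcripts, and their fibroblast list summed to 22.2 to 27.6 CPM, against 12.3 to 33.0 CPM in the other LNCaP libraries; the part of other RNA in the IGFBP4 count was not tested. IGFBP3 stood at 6.51 and 8.37 CPM against 7.29 and 8.52 CPM (0.13 ± 0.50, adjusted p = 0.903).

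On ACP in LNCaP, 1 of 7 members tested passed, beside 5.37% of all genes (3.28% higher and 2.09% lower), and it was IGF1R. IRS2, which fell on plastic, was at 6.83 and 8.51 CPM in control medium and 8.86 and 7.39 CPM in stripped serum on ACP (0.07 ± 0.30, adjusted p = 0.925). IGFBP3 was at 5.72 and 14.9 CPM in control medium and 4.66 and 6.16 CPM in stripped serum, a log2 difference of -0.94 given as a description.

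In MDAPCa2a on plastic, IGFBP2 rose in stripped serum from 261 and 301 CPM to 504 and 527 CPM. It was the 1 of 8 members tested that passed, beside 1.58% of all genes with 0.881% higher and 0.697% lower (0.91 ± 0.18, adjusted p = 0.0472), and the call was lost without any 1 of the 4 libraries (0.80 to 1.00) and with replicate numbers as blocks. IGF1R was at 57.4 and 63.7 CPM in control medium and 152 and 204 CPM in stripped serum, with no overlap (1.59 ± 0.33, adjusted p = 0.0528). INSR was at 86.9 and 82.4 CPM against 51.9 and 54.2 CPM, also with no overlap (-0.64 ± 0.15, 0.0694). Neither gene passed, and the share of all genes without overlap was not counted. The direction for IGF1R was the opposite of that in LNCaP on plastic; the difference between the lines was not tested. IGFBP3 was at 1230.0 and 997 CPM against 1282 and 992 CPM (0.06 ± 0.20, adjusted p = 0.921).

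In VCaP on ACP, 0 of 8 members tested passed with edgeR, beside 0.820% of all genes. With DESeq2 0 passed, beside 845 of all genes. An unadjusted p below 0.05 was found for 1 member, beside 2585 of all 15614 genes tested. That member was IGFBP5, at 3.57 and 3.33 CPM in control medium and 6.53 and 10.2 CPM in stripped serum (1.30 ± 0.39, adjusted p = 0.136). IGFBP3 was at 308 and 191 CPM in control medium and 1869 and 195 CPM in stripped serum. Its log2 difference of 2.06 rested on stripped replicate 1, since it was -0.37 without that library. The single VCaP library on plastic in stripped serum had 1313 CPM of IGFBP3 and 7.16 CPM of IGFBP5, against 26.2 and 167 CPM and 2.42 and 2.96 CPM on plastic in control medium; with 1 library this was not tested.

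The ACP coating was compared with plastic in the same medium. In RWPE in control medium, IGFBP2 and IGFBP5 were higher on ACP. IGFBP2 went from 142 and 172 CPM on plastic to 340.4 and 259 CPM, and IGFBP5 from 0.584 and 0.329 CPM to 2.15 and 1.51 CPM. These were 2 of 10 members tested, beside 4.16% of all genes with 2.83% higher and 1.33% lower (0.96 ± 0.23, adjusted p = 0.0434, and 2.02 ± 0.50, 0.0492), and both calls were lost without any 1 of the 4 libraries (0.76 to 1.12 and 1.67 to 2.48). IRS2 was at 69.9 and 75.4 CPM on plastic and 29.3 and 31.6 CPM on ACP (-1.23 ± 0.31, adjusted p = 0.0512), and IGFBP3 at 1.91 and 4.70 CPM against 10.7 and 11.1 CPM (1.74 ± 0.48, 0.0678). IGF2 did not pass either (-1.57 ± 0.50, 0.0980). These ACP control libraries also served as the reference for androgen medium in RWPE, in which IGFBP2 and IGFBP5 were lower.

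In LNCaP in control medium, 1 of 8 members tested passed, beside 12.6% of all genes (6.74% higher and 5.85% lower). It was IGFBP4, with 57 reads on plastic and 3 on ACP, a ratio of 11.4 (95% exact interval 3.69 to 56.7) and a log2 difference of -3.31 ± 0.98 (adjusted p = 0.0484), lost without any 1 of the 4 libraries (-7.32 to -2.37) and with replicate numbers as blocks. The same 57 reads of the plastic control libraries enter this comparison and that of stripped serum. In stripped serum, 0 of 7 members tested in LNCaP passed with edgeR, beside 6.12% of all genes (4.32% higher and 1.80% lower). With DESeq2 2 passed, beside 1733 of all genes. An unadjusted p below 0.05 was found for 3 members, beside 3743 of all 14656 genes tested. These 3 were IGF1R, at 5.90 and 6.12 CPM on plastic and 2.88 and 3.50 CPM on ACP (-0.88 ± 0.24, adjusted p = 0.0567), IRS1 (-0.96 ± 0.30, 0.0777) and IRS2 (0.72 ± 0.31, 0.174).

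In VCaP in control medium, 0 of 9 members tested passed with edgeR, beside 0.0448% of all genes, 0 had an unadjusted p below 0.05 and 0 passed with DESeq2. IGFBP3 was at 26.2 and 167 CPM on plastic and 308 and 191 CPM on ACP (1.43 ± 0.92, adjusted p = 0.722). In MDAPCa2a in stripped serum, 0 of 8 members passed with edgeR, beside 0.00734% of all genes, 1 had an unadjusted p below 0.05 (IGFBP2, -0.54 ± 0.18, adjusted p = 0.278) and 0 passed with DESeq2. Over all genes of that comparison, 2071 of 13626 had an unadjusted p below 0.05 and 206 passed with DESeq2. IGFBP3 there was at 1282 and 992 CPM on plastic and 1039 and 1274 CPM on ACP (0.11 ± 0.20, adjusted p = 0.790).

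The wider pathway was followed in 68 genes in 6 lists. With androgen on ACP, 5 of 56 tested were higher and 2 lower in LNCaP, beside 3.77% and 3.96% of all genes. In VCaP 4 of 62 were higher and 8 lower, beside 8.67% and 8.80% of all genes, and in RWPE against control medium 1 of 57 was higher and 11 lower, beside 11.0% and 8.05%. In MDAPCa2a 0 of 53 passed (0 at an unadjusted p below 0.05), beside 0% of all genes. These shares were not tested against each other or against all genes. The lists' median log2 differences were -0.11, -0.00, 0.05 and -0.31 in this order, beside -0.01, -0.03, -0.01 and -0.02 over all genes. GRB10, an adaptor that restrains insulin and IGF receptor signalling, went the opposite way to IGF1R in LNCaP with androgen and with stripped serum. Its mean fell with androgen from 354 to 79.5 CPM (-2.18 ± 0.27, adjusted p = 0.000928), and it rose with stripped serum from 211 to 710.0 CPM on plastic (1.80 ± 0.26, 0.00191) and from 125 to 354 CPM on ACP (1.49 ± 0.26, 0.00831). On ACP against plastic in stripped serum it fell from 710.0 to 354 CPM (-0.97 ± 0.26, adjusted p = 0.0488), where IGF1R also had the lower mean. In VCaP GRB10 fell with androgen from 117 to 20.1 CPM (-2.54 ± 0.21, adjusted p = 0.000356), where IGF1R rose.

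The list of FOXO factors and their targets, which AKT signalling holds back, had 4 of 14 genes lower with androgen in VCaP, where 8.80% of all genes were lower; the list itself was not tested. PIK3IP1, an inhibitor of PI3-kinase, fell in VCaP from 23.2 to 4.94 CPM (-2.23 ± 0.51, adjusted p = 0.0172). CCNG2, a cyclin of resting cells, had a more negative response in VCaP than in LNCaP (-1.59 ± 0.35, adjusted p = 0.00465), 1 of 2 genes among 65 tested that passed for this difference; the other was KLK3. INPP4B, a phosphatase that limits PI3-kinase products, rose with androgen in LNCaP from 4.53 to 15.2 CPM (1.73 ± 0.31, adjusted p = 0.00852). KLK2, a prostate kallikrein, rose with androgen in LNCaP from 45.8 to 159 CPM (1.78 ± 0.23, edgeR adjusted p = 0.00143). In VCaP KLK2 rose from 3104 to 5832 CPM (0.91 ± 0.25, 0.0334). The largest rise in VCaP was that of the kallikrein KLK3, from 78.1 to 2143 CPM (4.77 ± 0.74, edgeR adjusted p = 0.00384). Its SD between the androgen libraries was 1843 CPM. In RWPE, H19, the noncoding RNA that neighbours IGF2, had a mean of 209.7 CPM in control medium and 34.9 CPM with androgen (-2.56 ± 0.58, adjusted p = 0.0204), while IGF2 itself had 19 reads against 5 over the groups (-1.97 ± 0.66, 0.0579).

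With stripped serum, 8 of the 56 pathway genes tested were higher and 8 lower in LNCaP on plastic (4.61% and 4.84% of all genes), 5 higher and 5 lower on ACP (3.28% and 2.09%), 1 of 53 was higher in MDAPCa2a on plastic (0.881%), and 0 of 62 changed in VCaP on ACP (0.820%, with 15 of the 62 at an unadjusted p below 0.05). SESN3, a FOXO target, rose in LNCaP on plastic from 88.4 to 288 CPM (1.76 ± 0.30, adjusted p = 0.00461). The largest falls there were KLK3, from 2838 to 129 CPM (-4.41 ± 0.20, edgeR adjusted p = 1.96e-06), and KLK2, from 98.7 to 7.31 CPM (-3.71 ± 0.26, 2.91e-05). INPP4B was the 1 gene that rose in MDAPCa2a, from 19.9 to 42.9 CPM (1.14 ± 0.20, 0.0343). On ACP against plastic, 2 were higher and 2 lower of 57 in RWPE (2.83% and 1.33% of all genes) and 1 higher and 5 lower of 56 in LNCaP (6.74% and 5.85%) in control medium, 2 higher and 3 lower of 56 in LNCaP in stripped serum (4.32% and 1.80%), and 0 changed in VCaP in control medium (8 at an unadjusted p below 0.05) and in MDAPCa2a in stripped serum (10). Over all genes, 2585 of 15614 had an unadjusted p below 0.05 for stripped serum on ACP in VCaP. For ACP against plastic they were 1123 of 15614 in VCaP and 2071 of 13626 in MDAPCa2a. The pathway lists were chosen with earlier results of these data known, so their counts are a description.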

How the data were processed

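RNA of 34 libraries was sequenced after poly(A) selection, per the labels' protocols. The authors deposited raw read counts per gene symbol, made with STAR and HTSeq on hg19 per the submitters' processing notes; for versions, annotation and strand setting the sources used here give nothing. In the 2 RWPE plastic control columns, 16 values of 12 genes, none a member, had the form of spreadsheet date serials (0.819% and 0.996% of the reads) and were kept. The members, lists and tests were chosen with earlier results of these data known.

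Counts were tested with edgeR 4.0.16 (quasi-likelihood test, TMM factors, low-count filter filterByExpr at its minimum of 10), by line, or over all 34 libraries for comparisons between lines, with Benjamini-Hochberg adjustment over all genes tested and a threshold of 0.05. CPM use TMM scaling over all libraries. Differences are log2 fold changes of the edgeR fit at its default prior count. The log2 levels used for correlations have a prior count of 1. A count of 0 allows 3 counts over a group. Replicates of a group correlated at 0.987 to 0.994 and none was a copy of another. Replicate numbers were not used as pairs in the main fits, since same-numbered libraries deviated together between some groups only. All members are described; of the pathway lists, at most the 2 largest rises and falls that passed, reaching 5 CPM in the higher group, are named per comparison. Other scaling, no filter, DESeq2 1.42.0, replicate blocks, a fit of all lines and leaving out each library were the alternatives.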

Additional observations from a re-analysis of the deposited data

Results flagged for a closer look

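The androgen response on ACP differed between VCaP and LNCaP for 3 members by test. IRS2 (-4.18 ± 0.57, edgeR adjusted p = 8.52e-05), IRS1 (-2.70 ± 0.49, adjusted p = 0.00129) and IGFBP5 (-3.33 ± 0.76, adjusted p = 0.00617) passed a test of the difference itself, on the log2 scale and as VCaP minus LNCaP. The mean of IRS2 was higher with androgen in LNCaP and lower with androgen in VCaP. For IGFBP3 the difference was -9.03. It was not tested because IGFBP3 was chosen for it.

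The single VCaP library on plastic in stripped serum enters no comparison. Its IGFBP3 (1313 CPM), IGFBP5 (7.16 CPM) and IGFBP6 (1.49 CPM) each stood more than 2 times above both VCaP libraries on plastic in control medium. With 1 library these values have no replicate check.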

How the results depend on the processing

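Counts of members past the threshold moved by over 1.5 times under some alternatives, and the cause was not tested. Without the count filter the count went from 3 to 6 for androgen in VCaP, from 1 to 4 for stripped serum on plastic in MDAPCa2a, from 0 to 3 for ACP in stripped serum in LNCaP, and for ACP in control medium from 2 to 5 in RWPE and from 1 to 3 in LNCaP. With DESeq2 it went to 6 for androgen in VCaP and 3 for stripped serum on plastic in MDAPCa2a. It went to 2 for ACP in stripped serum in LNCaP and 5 for ACP in control medium in RWPE. For the androgen response of VCaP minus LNCaP it went from 3 to 5. Over all genes DESeq2 called 3415, 594, 1733, 1334 and 2450 in this order. With edgeR those counts were 2727, 215, 897, 595 and 1887. Calls over all genes under the other alternatives are not given here. In a fit of all lines the count of members went to 7 for androgen in VCaP and 3 for stripped serum on plastic in MDAPCa2a. With the replicate block it went from 4 to 7 for androgen medium in RWPE, to 6 for ACP in control medium in RWPE, and to 0 for stripped serum on plastic in MDAPCa2a and for ACP in control medium in LNCaP. Replicate numbers were not used as pairs in the main fits. Deviations of same-numbered libraries correlated between groups of a line at 0.0917 to 0.159 in RWPE and -0.201 to 0.401 in LNCaP. The range was -0.440 to 0.226 in VCaP and -0.358 to 0.462 in MDAPCa2a. The value of 0.462 was between stripped serum and androgen on ACP. Whether same-numbered libraries shared a batch was not tested.

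Leaving out each library in turn left 1 library in a group of 2, so counts in these fits are not given. In many comparisons the members past the threshold changed with the library left out. Within lines the number of all genes past it often changed too, so a lost call is not read as particular to the members. Between lines on plastic, the main counts of 8 for MDAPCa2a against RWPE and 8 for VCaP against MDAPCa2a fell in every such fit. Those of 9 for VCaP against RWPE and 8 for VCaP against LNCaP fell in some. The counts of the other pairs on plastic did not change. The number of all genes past the threshold fell in every such fit on plastic, for each pair of lines. The falls in the member counts are therefore not read as particular to the members. For ACP with androgen the counts of such fits included IGFBP3, whose choice rested on those values, so they are not compared with the main counts. The one reversal was IGFBP3 with stripped serum on ACP in VCaP, -0.37 without stripped replicate 1, against 2.06 with all libraries and 2.92 without stripped replicate 2. Of 241 values per setting, 235 kept their direction and side of the threshold with RLE size factors, 223 without the filter and 224 with the replicate block, as did 217 of 235 with DESeq2, 104 of 111 in the fit of all lines and 948 of 1043 with a library left out. Few reads stand behind IGF2 (at most 45 in any library) and, in LNCaP and MDAPCa2a, behind IGFBP4 (at most 36) and IGFBP6 (at most 16).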

Other observations

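The make-up of the binding protein transcripts, as each gene's share of the summed level of IGFBP2 to IGFBP6 per kilobase of exon, set the lines apart. IGFBP2 made up a median of 94.5% in LNCaP, 72.7% in VCaP, 69.3% in RWPE and 33.7% in MDAPCa2a. IGFBP3 made up a median of 66.3% in MDAPCa2a (52.9% to 73.6%) and 1.05% in RWPE, and it ran from 3.10% to 76.3% over the 9 VCaP libraries and from 3.54% to 34.6% over the 10 LNCaP libraries. IGFBP6 made up 13.2% to 47.7% in RWPE and at most 0.506% in any library of the other lines. IGFBP7, which is not in this sum, stood in RWPE at 75.8 CPM per kilobase on plastic and 95.8 on ACP in control medium. IGFBP6 stood at 86.6 and 78.9 in these groups. IGFBP4 and IGFBP5 made up at most 3.26% and 0.747% in any library.

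Over the 17 group means, the genes whose log2 level was most like that of IGFBP3, out of 13217 compared, were GFI1 (Pearson's r = 0.948), FRAS1 (0.947) and PCYOX1 (0.945). With each line's own mean removed they were ALCAM (0.935), CLMN (0.930) and EDA (0.928). Among the members, IGFBP5 was the most like IGFBP3 after this centring (0.799) and IGF1R the least (-0.07). These are descriptions over groups that share lines and libraries, given with no p.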
